A study of Homo sapiens with 12 samples.

Results

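TGM2, RARRES1, RARRES2, RARRES3 (since renamed PLAAT4), NRIP1 and TNFAIP2 are genes classically described as retinoid-induced. Together with A2M, they were followed through RNA-seq counts of A375 cells given a retinoid, a BRAF inhibitor or both. These 7 genes are listed among 58347 in the count files, and 5 of them were abundant enough to be among the 16740 genes tested, while RARRES1 and RARRES2 stayed near 0 counts. Of the 7 names, 6 come from the wider retinoid literature, though the list was drawn up with earlier results of these data known. A2M was chosen by its rise with tretinoin in these same counts, so A2M is described without any test. A375 is an established human melanoma line with mutant BRAF. The cells received dimethyl sulfoxide (DMSO, the vehicle), tretinoin, vemurafenib, or vemurafenib together with tretinoin, for 8 h. Each of these 4 groups held 3 replicates, and the labels give 5 µM for every group, vehicle included, without saying how the combination's dose divides between the drugs. A single cell line and a single time were sampled, and nothing in the sources states that the replicates were separately grown cultures, so the p-values below measure the spread between these samples, which may be technical.

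Tretinoin is all-trans retinoic acid, the natural ligand of the retinoic acid receptors (RARs). These receptors sit on DNA as heterodimers with retinoid X receptors (RXRs), hold genes down with corepressors such as NCOR1 when empty, and exchange them for coactivators of the NCOA family once ligand is bound. Their response elements are typically direct repeats of the motif AGGTCA or a close relative of it. Retinoids have been described as slowing growth and promoting differentiation, but the authors call the reports on tretinoin in melanoma conflicting. The genes followed here have varied functions. TGM2 is tissue transglutaminase, a calcium-dependent protein crosslinker. NRIP1 (RIP140) is a corepressor that binds ligand-occupied nuclear receptors, the RARs among them. TNFAIP2 is a cytoplasmic protein first cloned as an induced target of tumour necrosis factor and linked to membrane nanotubes. RARRES1 is a membrane protein related to the carboxypeptidase inhibitor latexin, RARRES2 encodes the secreted chemoattractant chemerin, and RARRES3 is a growth-suppressive phospholipase and acyltransferase. A2M is the secreted broad-spectrum protease inhibitor alpha-2-macroglobulin.

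Promoter sequences are shown because motifs of the retinoid receptors can be read directly in them. RefSeq windows on GRCh38.p14, which run from 250 bases before to 50 bases after a transcription start, were found for 4 of the 7 genes. These are RARRES1, RARRES2, TNFAIP2 and NRIP1, and NRIP1 has 3 alternative starts, which gives 6 windows. The motif AGGTCA was searched on both strands. Its variant AGTTCA, accepted in many natural elements, was searched in the same way, and so was the variant GGGTCA. Capitals mark every match. The 3 windows below are RARRES2 (chr7:150341580-150341879, minus strand), TNFAIP2 (chr14:103123211-103123510, plus strand) and the outermost NRIP1 start (chr21:15065887-15066186, minus strand), each written 5′ to 3′ on the gene's own strand.
RARRES2: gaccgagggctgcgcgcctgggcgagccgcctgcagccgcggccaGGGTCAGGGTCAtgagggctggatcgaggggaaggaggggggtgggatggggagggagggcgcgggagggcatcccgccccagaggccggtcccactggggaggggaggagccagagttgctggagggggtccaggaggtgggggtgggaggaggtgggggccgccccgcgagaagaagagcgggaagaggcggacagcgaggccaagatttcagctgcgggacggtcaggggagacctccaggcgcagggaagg
TNFAIP2: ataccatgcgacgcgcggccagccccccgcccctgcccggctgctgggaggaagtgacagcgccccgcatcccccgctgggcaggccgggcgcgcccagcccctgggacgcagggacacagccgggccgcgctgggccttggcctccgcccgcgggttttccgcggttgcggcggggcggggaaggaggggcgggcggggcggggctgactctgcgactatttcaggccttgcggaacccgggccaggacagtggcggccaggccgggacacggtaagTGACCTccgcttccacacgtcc
NRIP1: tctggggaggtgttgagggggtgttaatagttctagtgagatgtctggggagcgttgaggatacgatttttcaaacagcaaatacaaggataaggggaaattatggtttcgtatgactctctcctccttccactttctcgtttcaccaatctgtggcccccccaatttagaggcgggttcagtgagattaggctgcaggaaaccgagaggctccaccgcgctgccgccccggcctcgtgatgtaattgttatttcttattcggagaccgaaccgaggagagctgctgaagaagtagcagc
The RARRES2 window holds a pair of GGGTCA motifs that follow each other directly, beginning at -205 and -199 from the start site. The TNFAIP2 window holds TGACCT at 29 bases into the transcript, which is AGGTCA on the opposite strand. None of the searched motifs occur in the RARRES1 window or in any of the 3 NRIP1 windows. The related letters GGTTCA, which the outermost NRIP1 window holds, were not among those searched. Over all 35116 RefSeq windows of the same length, 33.2% hold at least 1 of the motifs (13.8% AGGTCA, 10.4% AGTTCA and 14.1% GGGTCA), so a match in 2 of 6 windows is close to the share of all promoters. A direct repeat with 1, 2 or 5 bases between the motifs, the arrangements that RAR and RXR favour, occurs in 0.122%, 0.0285% and 0.0427% of all windows, and in 0 of the 6 windows of these genes. The matches are descriptions of 300 bases each and do not bear on sites elsewhere.

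The depth was 13510235 to 21534377 counts per library. Among lineage markers, SOX10, a defining factor of melanocytes, was listed at 0 counts in all 12 libraries and TYR at 0 to 1, whereas MITF had 245 to 658 counts, S100B 84 to 206, AXL 5047 to 8429 and VIM 12478 to 20997. The authors' counting drops fragments that fall on another gene as well, and such overlap was checked for the members only. The 0 counts of SOX10 thus do not show that it was silent. Of 8 melanocyte lineage markers, 6 reached 10 counts in some library, as did 5 of 5 markers of undifferentiated melanoma and 8 of 12 markers of epithelium, blood, endothelium, fibroblasts and liver. The last group was led by KRT14 with 64 to 580 counts, while CDH1, EPCAM, ALB and APOA1 did not exceed 8. The summed level of these 12 markers was 16.2 to 23.1 CPM (counts relative to the library total, defined below) with DMSO, 18.3 to 20.9 with tretinoin, 39.9 to 43.1 with vemurafenib and 36.4 to 48.2 with the combination, with both vemurafenib groups above the other two. The 8 melanocyte markers summed to 24.3 to 31.1 CPM without vemurafenib and to 39.8 to 46.0 CPM with it, a difference that lay mostly in MITF, at a mean of 17.6 CPM with DMSO and 32.4 CPM with vemurafenib, while PMEL was at 1.16 and 0.79 CPM. The 5 markers of undifferentiated melanoma had lower sums with vemurafenib, at 1532 to 1724 CPM without it and 1254 to 1458 CPM with it. Lower means lay in AXL (410.5 CPM with DMSO, 314.9 with vemurafenib), MCAM (238.7 and 167.7) and NGFR (40.8 and 25.7). VIM, the largest of the 5, showed no such shift. Its means were 972 CPM with DMSO, 845 with tretinoin, 930 with vemurafenib and 891 with the combination. SOX9 had means below 1 CPM in every group. Mitochondrial genes took 0.592% to 0.689% of the counts with DMSO, 0.957% to 1.49% with tretinoin, 1.09% to 1.11% with vemurafenib and 1.21% to 1.86% with the combination. The part of these markers and of the mitochondrial share in the results below was not tested. In bulk RNA, fewer cells that express a gene and less RNA per cell cannot be told apart.

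Levels are given as CPM, a normalised read count, that is the fragments of a gene relative to the library's total after TMM normalisation, a scaling that assumes most genes do not change. Changes are log2 fold changes with standard errors (SE) from edgeR's quasi-likelihood test, with p-values adjusted by Benjamini-Hochberg over all 16740 genes tested and a threshold of 0.05. All comparisons with DMSO share the same 3 DMSO libraries. Per kilobase of annotated exon, which allows genes to be compared, TNFAIP2 (18.5 CPM per kb ± 1.4, SD, n = 3) and TGM2 (16.9 ± 1.3) were the most abundant of the 7 in DMSO. Their replicates overlapped, at 17.3 to 20.1 for TNFAIP2 and 15.8 to 18.4 for TGM2. NRIP1 followed at 6.20 ± 0.54 CPM per kb and A2M at 2.32 ± 0.30, each apart from its neighbours, and RARRES3 lay far lower at 0.409 ± 0.076. In the combination this order was changed, with TNFAIP2 at 23.4 ± 1.2 CPM per kb, NRIP1 at 11.7 ± 1.1, TGM2 at 7.12 ± 1.01 and A2M at 6.04 ± 0.49. There TGM2 and A2M overlapped, whereas NRIP1 stood above TGM2 in every replicate.

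**Figure D1:**
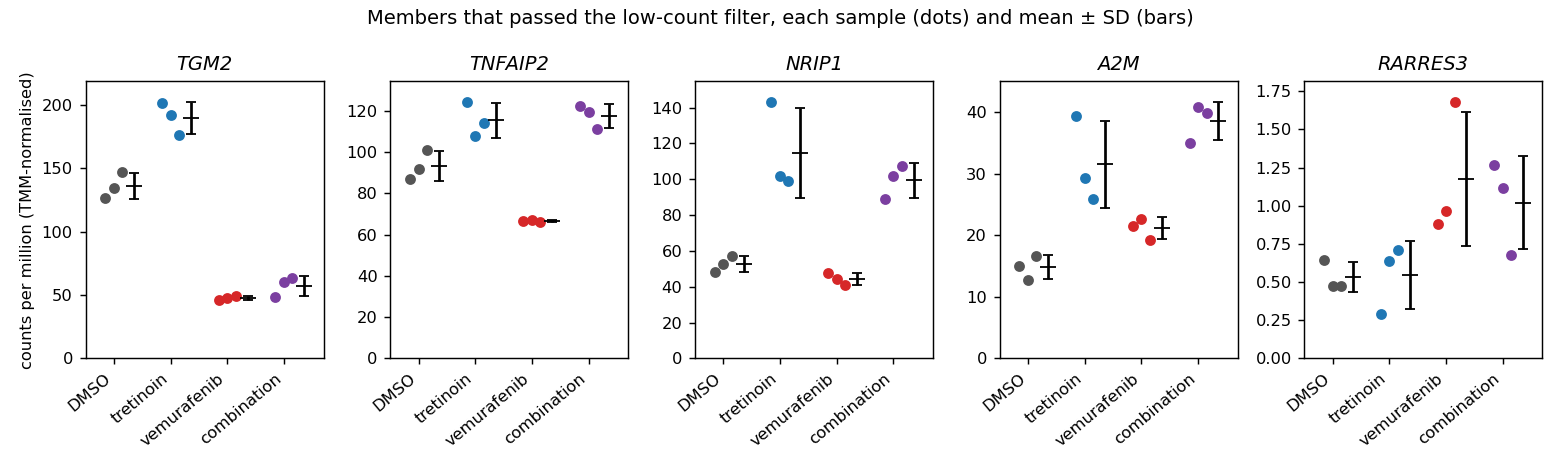
TMM-normalised CPM (vertical axes, linear and starting at 0) of the 5 genes that passed the low-count filter, with dots for the 3 replicates of each treatment group and bars for mean ± SD. NRIP1, TNFAIP2 and A2M are high in both groups that received tretinoin, whereas TGM2 is low in both that received vemurafenib, at 46.2 to 63.7 CPM.

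With tretinoin alone, 3 of the 4 tested genes other than A2M rose, against 3.48% of all genes tested, and the median log2 fold change of the 4 was 0.39 beside 0.01 over all genes. Since the genes were chosen with earlier results of these data known, this count is a description. Over all genes 583 rose and 368 fell, and with scaling by total counts alone 758 rose and 174 fell. NRIP1, the corepressor, rose most of the 4. TGM2 and TNFAIP2 rose by less, and RARRES3 was at 0.10 with an SE of 0.45 (adjusted p = 0.93), an interval wide enough to hold a sizeable change either way.

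NRIP1 (ENSG00000180530, chr21:14961235-15065936, minus strand) had 48.0, 52.8 and 57.3 CPM in the DMSO replicates and 143, 102 and 98.9 CPM with tretinoin. All tretinoin replicates lay above all DMSO replicates, and tretinoin replicate 1 stood well above the others. The rise was 1.12 on the log2 scale (SE 0.12, 2.17-fold, adjusted p = 1.7e-05 by edgeR), and 1.97% of genes tested had a higher value. Without tretinoin replicate 1, which is also the shallowest library and the one with the highest mitochondrial share of its group, the rise was 0.92 (adjusted p = 5.9e-08).

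TGM2, the transglutaminase (ENSG00000198959, chr20:38127387-38166578, minus strand), had 127, 134 and 147 CPM with DMSO and 202, 192 and 176 CPM with tretinoin. The groups were apart, and the rise of 0.48 (SE 0.09, 1.39-fold) had an adjusted p of 0.0034 in edgeR. TNFAIP2 (ENSG00000185215, chr14:103123442-103137439, plus strand) had 86.9, 91.6 and 101 CPM with DMSO and 124, 108 and 114 CPM with tretinoin. These groups were apart by a small margin. The rise was 0.31 (SE 0.07, 1.24-fold, adjusted p = 0.02 by edgeR), and it did not pass when only the compared groups were fitted (adjusted p = 0.1) or without DMSO replicate 1 (0.075) or 2 (0.087).

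A2M (ENSG00000175899, chr12:9067664-9116229, minus strand), chosen for this rise, had 15.1, 12.8 and 16.6 CPM with DMSO and 39.4, 29.3 and 25.9 CPM with tretinoin, a difference of 1.07 on the log2 scale (SE 0.14). As for NRIP1, the highest value was in tretinoin replicate 1, and without that library the difference was 0.89.

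With vemurafenib alone, the genes parted ways. Of the 4 tested genes other than A2M, TGM2 and TNFAIP2 fell and RARRES3 rose, in a comparison in which 26.4% of all genes rose and 26.3% fell, so such a count is near the background. That even split depends on the scaling, since 4411 genes rose and 4400 fell with TMM, whereas 6575 rose and 2628 fell with total counts alone. The 3 calls among the 4 genes were made under both. The median of the 4 was -0.37, against 0.02 over all genes. TGM2 went from the DMSO values above to 46.2, 47.5 and 49.0 CPM. This fall was far outside the spread of either group, at -1.52 on the log2 scale (SE 0.09, 2.86-fold lower, adjusted p = 4.6e-10 by edgeR), and only 1.89% of genes tested had a lower value. TNFAIP2 went to 66.7, 67.1 and 65.9 CPM, a log2 fold change of -0.49 (SE 0.07, 1.4-fold lower, adjusted p = 3e-05 by edgeR), or -0.29 with total counts alone (adjusted p = 0.0058). NRIP1 had 47.9, 44.3 and 40.7 CPM with vemurafenib. Its replicates lay just below those of DMSO, with a log2 fold change of -0.25 (SE 0.12) that missed the threshold (adjusted p = 0.099). That value passed without a low-count filter (adjusted p = 0.022), in the fit of the compared groups alone (0.011) and without tretinoin replicate 1 (0.0087), and with total counts alone it was -0.05 (0.75). A2M had 21.6, 22.7 and 19.2 CPM, above every DMSO value, and the difference was 0.51 (SE 0.14).

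RARRES3, the acyltransferase (ENSG00000133321, chr11:63536809-63546462, plus strand), was the lowest of the tested genes. Its raw counts were 10, 7 and 9 with DMSO, 4, 11 and 13 with tretinoin, 17, 20 and 28 with vemurafenib, and 23, 24 and 15 with the combination. The vemurafenib replicates lay above those of DMSO and of tretinoin, while the combination overlapped with vemurafenib. The rise with vemurafenib was 1.12 on the log2 scale (SE 0.39, adjusted p = 0.024 by edgeR). It did not pass under DESeq2 (adjusted p = 0.056, or 0.054 with its shrinkage prior) or without DMSO replicate 2 (0.069), DMSO replicate 3 (0.084) or vemurafenib replicate 3 (0.13). At such counts the SE of 0.39 limits which changes could be detected.

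RARRES1 (ENSG00000118849, chr3:158696892-158732696, minus strand) and RARRES2 (ENSG00000106538, chr7:150338317-150341674, minus strand) did not pass the filter and were not tested. RARRES1 had 0, 1 and 0 raw counts in the DMSO replicates, 2, 0 and 1 with tretinoin, 1, 0 and 4 with vemurafenib, and 1, 0 and 3 with the combination. For RARRES2 the counts were 0, 2 and 0 with DMSO, 0, 0 and 2 with tretinoin, 5, 3 and 1 with vemurafenib, and 2, 2 and 1 with the combination. A count of 0 is compatible with up to 3 counts, and only 1 library of the 12 exceeded 3 for either gene, so no change between groups was detectable at this depth and no fold is given. RARRES2 with its adjacent GGGTCA motifs, shown above, thus had 18 fragments in all 12 libraries together. The receptors of its product chemerin were also near 0, at most 7 counts for CMKLR1, 4 for GPR1 and 4 for CCRL2 in any library.

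**Figure D2:**
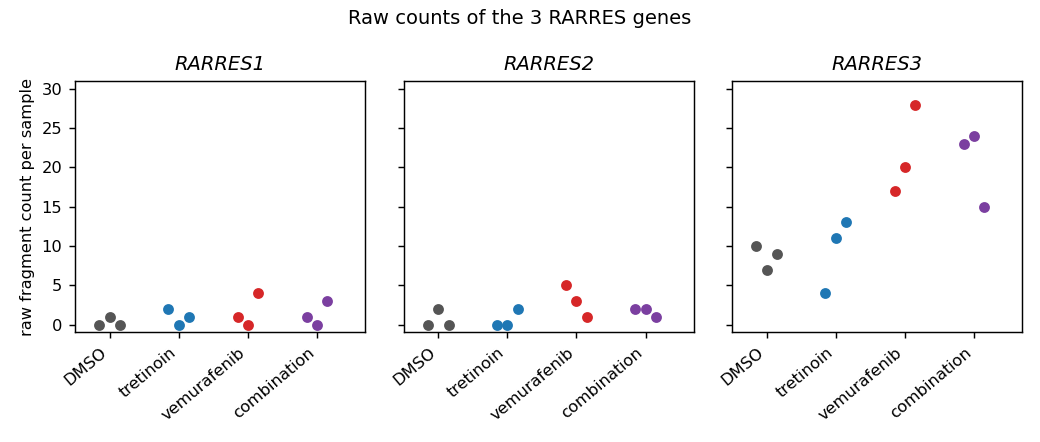
Raw fragment counts per sample (vertical axis, linear, not normalised) of RARRES1, RARRES2 and RARRES3 in the 4 treatment groups, 1 dot per replicate. RARRES1 and RARRES2 stay at 5 counts or below in all 12 libraries, while RARRES3 spans 4 to 28 with its highest counts in the vemurafenib group.

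Comparing the combination with vemurafenib asks what tretinoin added once BRAF was inhibited, and it shares no library with the comparison of tretinoin with DMSO. NRIP1 and TNFAIP2 rose, 2 of the 4 tested genes, against 2.27% of all genes, and the median of the 4 was 0.54 beside 0.00 over all genes. This count too is a description, given how the genes were chosen. NRIP1 had 88.9, 102 and 108 CPM in the combination. Every one of these lay above every vemurafenib replicate, and the rise of 1.17 on the log2 scale (SE 0.12, 2.24-fold, adjusted p = 6.6e-06 by edgeR) exceeded that of 99.3% of genes tested. TNFAIP2 had 122, 119 and 111 CPM in the combination. It rose by 0.82 (SE 0.07, 1.76-fold, adjusted p = 1.4e-06 by edgeR), above 98.3% of genes tested. A2M had 35.0, 40.8 and 39.9 CPM in the combination, apart from the vemurafenib values, with a difference of 0.87 (SE 0.13). TGM2 had 48.2, 59.9 and 63.7 CPM and overlapped with vemurafenib, with a log2 fold change of 0.27 (SE 0.09) that missed the threshold (adjusted p = 0.14 by edgeR). The TGM2 value passed when only the compared groups were fitted (0.27, adjusted p = 0.047), without tretinoin replicate 1 (0.27, 0.045) and without combination replicate 1 (0.38, 0.016). RARRES3 was at -0.20 (SE 0.34, adjusted p = 0.89).

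**Figure D3:**
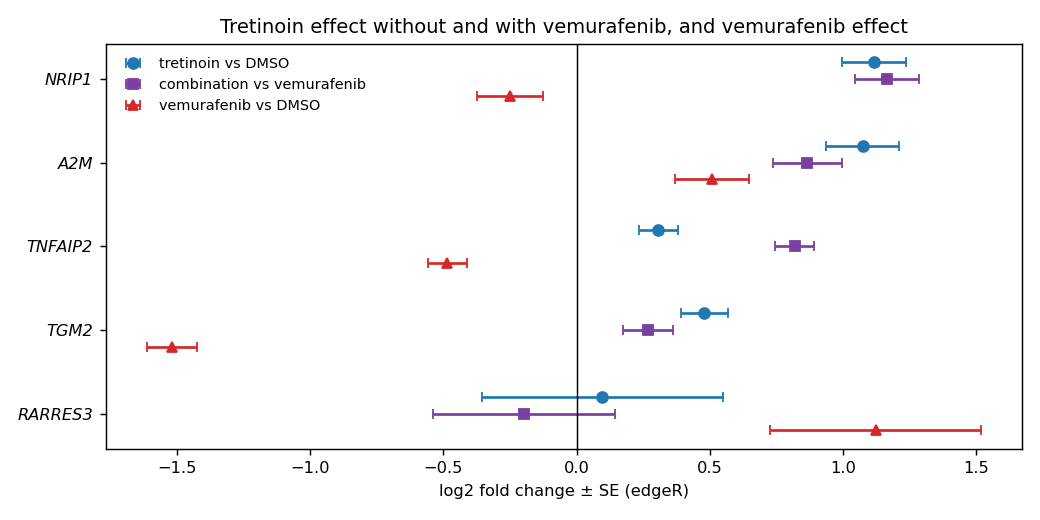
Log2 fold changes from edgeR (horizontal axis, bars are ± SE) of the 5 tested genes for tretinoin against DMSO (circles), the combination against vemurafenib (squares) and vemurafenib against DMSO (triangles). The circle and the square of NRIP1 nearly coincide at 1.12 and 1.17, those of TNFAIP2 are apart at 0.31 and 0.82, and the TGM2 triangle lies at -1.52.

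Whether the tretinoin response differed with and without vemurafenib was tested by an interaction term. This term is the log2 fold change of the combination against vemurafenib less that of tretinoin against DMSO. The doses in the combination are not known to equal those of the single drugs, so a difference in dose cannot be told apart here. Of the 4 tested genes, TNFAIP2 passed, and 0.806% of all genes did so in either direction, 64 of them upward and 71 downward, or 36 and 132 with total counts alone. The TNFAIP2 interaction was 0.51 (SE 0.10, adjusted p = 0.024 by edgeR), a larger response beside vemurafenib. This call depended on the fit: it did not pass with scaling by total counts alone (0.41, adjusted p = 0.091), with the replicate number as a block (0.51, 0.065) or in 8 of 12 fits that each left out 1 library. In those 8 fits DMSO replicate 2 or 3, tretinoin replicate 2, any vemurafenib replicate, or combination replicate 1 or 2 was absent. Over all 12 such fits the value stayed between 0.45 and 0.57. For NRIP1 the interaction was 0.05 (SE 0.17, adjusted p = 0.92), for TGM2 -0.21 (SE 0.13, 0.43) and for RARRES3 -0.29 (SE 0.57, 0.84). These intervals leave room for differences of the size seen for TNFAIP2 in RARRES3, and a value short of the threshold does not show equal responses. A2M had an interaction value of -0.21 (SE 0.19).

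Against DMSO, the combination left NRIP1 and TNFAIP2 higher and TGM2 lower, where 27.1% of all genes rose and 26.5% fell. This balance also depends on the scaling, at 4537 up and 4440 down with TMM against 6242 up and 2916 down with total counts alone. The median of the 4 tested genes was 0.62, beside 0.03 over all genes. The log2 fold change of NRIP1 was 0.92 (SE 0.12, adjusted p = 5.7e-06), that of TNFAIP2 0.33 (SE 0.07, adjusted p = 0.0009) and that of TGM2 -1.25 (SE 0.09, adjusted p = 4.3e-09), all by edgeR. RARRES3 was at 0.93 (SE 0.40, adjusted p = 0.059) with all its replicates above DMSO. The RARRES3 value passed with total-count scaling (0.028), with the compared groups alone (0.04), without tretinoin replicate 1 (0.046) and without combination replicate 3 (0.032). A2M differed by 1.38 (SE 0.13).

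Compared with tretinoin alone, the combination was lower in TGM2 only among the 4 tested genes, with a log2 fold change of -1.73 (SE 0.09, 3.31-fold lower, adjusted p = 7.3e-11 by edgeR), where 25.0% of all genes fell. With TMM 4026 genes rose and 4191 fell, and with total counts alone 5051 rose and 3271 fell. The other values were -0.20 for NRIP1 (SE 0.12, adjusted p = 0.17), 0.03 for TNFAIP2 (SE 0.07, 0.78) and 0.83 for RARRES3 (SE 0.39, 0.09). The TNFAIP2 replicates overlapped between these groups, at 108 to 124 CPM and 111 to 122 CPM. NRIP1 passed as lower without tretinoin replicate 3 (-0.30, adjusted p = 0.045), and RARRES3 as higher without combination replicate 3 (1.05, 0.049). A2M differed by 0.30 (SE 0.13), with overlapping replicates.

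A list of 34 other genes described as retinoid-induced, also drawn up with earlier results known, gave a wider view, of which 26 were tested. With tretinoin alone 8 rose, where 3.48% of all genes rose, and HOXB2 fell, where 2.2% of all genes fell. With the combination against vemurafenib 12 rose, where 2.27% of all genes did. The medians of the 26 were 0.27 and 0.57, beside 0.01 and 0.00 over all genes. The strongest by p-value in the latter comparison were DHRS3, a retinal reductase that returns retinoid to storage, the homeobox gene HOXA5, the retinol transporter STRA6 and the circadian repressor BHLHE40. DHRS3 had 20.8 CPM ± 3.2 with DMSO, 156 ± 12 with tretinoin, 69.2 ± 2.0 with vemurafenib and 402 ± 8 with the combination (SD, n = 3). It rose by 2.91 (SE 0.09) with tretinoin and by 2.54 (SE 0.09) on top of vemurafenib, more than any of the 5 tested members. HOXA5 rose by 0.91 (SE 0.10) and 1.94 (SE 0.10), STRA6 by 1.34 (SE 0.09) and 1.45 (SE 0.09), and BHLHE40 by 0.89 (SE 0.10) and 0.98 (SE 0.11), in the same order. All 8 of these values had adjusted p below the threshold in edgeR.

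**Figure D4:**
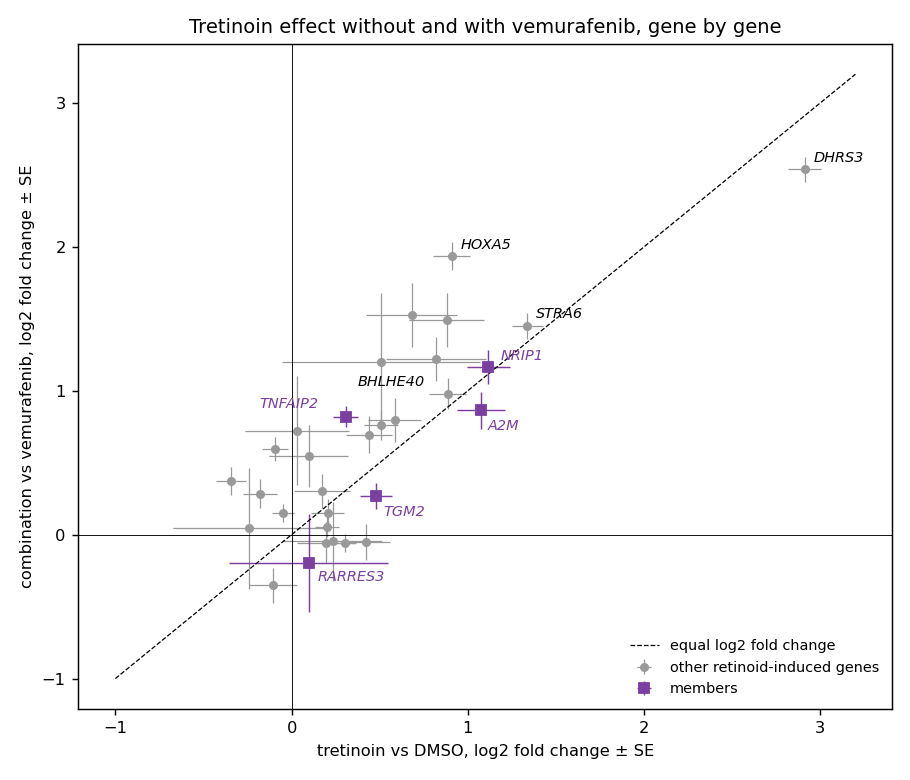
Log2 fold change with tretinoin against DMSO (horizontal axis) and with the combination against vemurafenib (vertical axis), from disjoint libraries, for the 5 tested members (squares) and the 26 tested genes of the wider retinoid list (circles), bars ± SE. TNFAIP2 and HOXA5 lie above the dashed line of equal change, NRIP1 lies close to it, and DHRS3 reaches 2.91 and 2.54.

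In this list 3 of 26 genes passed the interaction test, which 0.806% of all genes passed. They were HOXA5 (1.03, adjusted p = 0.0024), HOXB2 (0.72, 0.012) and IGFBP3 (0.69, 0.0057) by edgeR, positive in sign like TNFAIP2. These 3 are named after their values were seen, and only HOXA5 among them rose with tretinoin alone. HOXB2 was at -0.34 with tretinoin alone (adjusted p = 0.027 by edgeR) and at 0.37 in the combination against vemurafenib (0.038). IGFBP3 was at -0.09 (0.49) and 0.60 (0.00013) in the same order. With vemurafenib alone 6 of the 26 rose and 10 fell, beside a background of 26.4% up and 26.3% down over all genes. Among those that fell were IGFBP3, the insulin-like growth factor binding protein, at -3.83 (SE 0.09) and GPRC5A, the retinoic acid-induced orphan receptor, at -2.96 (SE 0.11). TGM2 fell with vemurafenib beside other genes of this list, whereas DHRS3 rose by 1.74 (SE 0.09).

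A further list held 10 retinoid receptors and coregulators, all of them tested. In the combination against vemurafenib, the receptor RARA rose by 0.32 (SE 0.09, adjusted p = 0.042 by edgeR) and the coactivator NCOA2 fell by 0.39 (SE 0.10, adjusted p = 0.033), where 2.2% of all genes fell. With vemurafenib alone 5 of the 10 rose and 2 fell, where 26.4% of all genes rose and 26.3% fell. RARG, at 0.92 (SE 0.06), and NCOA2, at 1.04 (SE 0.11, adjusted p = 3.2e-07), were higher and RARA, at -0.83 (SE 0.09), was lower. The interaction passed for NCOA2, at -0.67 (SE 0.15, adjusted p = 0.045). Relatives and partners of the 7 genes, 23 in all, yielded 7 that could be tested. With vemurafenib alone 3 of these rose and 2 fell, where 26.4% of all genes rose and 26.3% fell. In the combination against vemurafenib 0 rose and 1 fell, where 2.27% of all genes rose and 2.2% fell. In the combination against vemurafenib, TGM1, the keratinocyte transglutaminase, fell by 0.89 (SE 0.19, adjusted p = 0.009), and with vemurafenib alone it rose by 1.43 (SE 0.21, adjusted p = 1.9e-05). TGM2 went the other way in that last comparison. LRP1, the endocytic receptor that clears A2M bound to protease, rose with vemurafenib by 1.04 (SE 0.10, adjusted p = 7.3e-08), and TNFAIP3, an inhibitor of NF-kappaB signalling, fell by 1.68 (SE 0.15, adjusted p = 4.6e-08).

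Genes whose 3 log2 fold changes against DMSO lay nearest to those of each member were sought among 15240 tested genes with a symbol, by the root mean square difference. For TGM2 these were SLC19A3 (0.08), CLDN4 (0.10) and TNFRSF10A-AS1 (0.11). For NRIP1 they were ITIH6 (0.07), CPA4 (0.12) and ADRA1B (0.13), and for TNFAIP2 MMP23B (0.08), FAM3C (0.10) and PGBD5 (0.11). RARRES3 was nearest to SSX4 and SSX4B (both 0.04, near-identical copies with the same values) and to the pseudogene ARMCX7P (0.05). A2M was nearest to MT-ATP6 (0.13), MT-CYB (0.14) and SNORA60 (0.14), so 2 of its 3 nearest profiles are mitochondrial transcripts, whose share of the counts is given above. MT-ATP6 differed from DMSO by 0.98 with tretinoin, 0.70 with vemurafenib and 1.30 with the combination, beside 1.07, 0.51 and 1.38 for A2M. Several of the nearest genes had mean levels below 1 CPM, namely ITIH6 (0.38), SNORA60 (0.42), SSX4 and SSX4B (0.59), TNFRSF10A-AS1 (0.63), MMP23B (0.73) and PGBD5 (0.86). Fold changes at such levels are imprecise, so these small differences do not show that the genes share a member's profile.

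Several members share annotated exon sequence with another gene, where the authors' counting drops a fragment that falls on both. TGM2 shares 394 exon bases (4.90% of its exons) with RPRD1B on the opposite strand, and RPRD1B was at -0.40 with vemurafenib and 0.06 in the combination against vemurafenib. NRIP1 shares 562 bases (6.61%) with the antisense gene AF127577.1, which had 0 counts in all libraries, and 87 bases with AF127577.4. RARRES1 shares 331 bases (14.8%) with MFSD1, which had 811 to 1296 counts, and 266 bases (11.9%) with AC080013.1. A2M shares 561 bases (8.79%) with A2M-AS1, which had 0 to 8 counts, and a stretch of 214 bases is near-identical to its relative PZP, which had 1 to 18 counts. The counts of TGM2, NRIP1, RARRES1 and A2M are uncertain to the extent of these shared bases, and whether their effect differs between the groups was not tested.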

How the data were processed

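RNA of 12 A375 samples (4 treatment groups of 3) had been enriched for poly(A), made into strand-specific libraries and sequenced in pairs. The authors aligned reads with STAR 2.5.3a to GRCh38.p10 and counted fragments per GENCODE 27 gene over the union of exons with the strand ignored. They deposited raw counts without normalization, in separate files. Raw reads were not analysed here. Samples were grouped by their labels.

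Genes were filtered with filterByExpr by group and normalized by TMM, and a quasi-likelihood model with a term per group was fitted to all samples in edgeR 4.0.16 (R 4.3.3; common dispersion 0.00653), after the fit was tested on simulated data. An SE is the size of the log2 fold change over the square root of F. Totals of 13510235 to 21534377 counts per library limit low genes, and limits on 0 counts cover counting error only. Alternatives were DESeq2 1.42.0 with and without its prior, its size factors, total-count scaling, no filter, at least 10 counts in every sample, the compared groups alone, the replicate number as a block, and each library left out. Deviations from group means did not go together for equal replicate numbers (mean correlation -0.03 over 18 pairs).

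The members, the lists of other retinoid genes and the tests were chosen with earlier results of these data known. Named genes were all members, up to 4 list genes by p-value in the combination against vemurafenib (then in vemurafenib against DMSO), the 3 nearest profiles of each member and overlapping genes. HOXB2 and IGFBP3 were also named where a count was small. A result on the list of receptors and coregulators is not reported here. Gene positions and exon lengths are from GENCODE 29 (GRCh38), promoters from RefSeq (GRCh38.p14), and tables and plots were made with Python 3.11.15. Shared exon bases are overlaps of annotated exon positions on either strand. The near-identical stretch of A2M and PZP was found by blastn, which sought at least 150 bases at 98% identity.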

Additional observations from a re-analysis of the deposited data

Results flagged for a closer look

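TNFAIP2 passed the test of whether its tretinoin response differs between cells with and without vemurafenib, although the call was lost in 10 of 18 alternatives. The division of the combination's dose is not stated, so a difference in dose cannot be told apart here. The log2 fold change was 0.31 with tretinoin alone and 0.82 beside vemurafenib, and the interaction was 0.51 (SE 0.10, adjusted p = 0.024 by edgeR, over 16740 genes). The mean level was 93.1 CPM ± 7.1 with DMSO, 115 ± 8 with tretinoin, 66.6 ± 0.6 with vemurafenib and 118 ± 6 with the combination (SD, n = 3). The vemurafenib replicates were the lowest of the 4 groups, and the groups with tretinoin overlapped. Under DESeq2 the interaction was 0.52 (adjusted p = 0.00027). It was 0.51 with the replicate block (adjusted p = 0.065) and 0.41 with total counts alone (0.091), and 8 of 12 fits that left out 1 library lost the call. Over the 18 alternatives it ranged from 0.41 to 0.57, and the call was kept in 8.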

How the results depend on the processing

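For the 4 tested genes other than A2M, 423 of 466 values under the alternatives kept direction and stayed called or uncalled. Of the others, 18 lost the call, 12 gained one and 13 turned in direction. Values that were never called count among the 423, and the alternatives reuse the same libraries, so this share does not measure how stable the calls are. All 118 values of A2M kept direction. Several A2M values moved by more than 1 SE. With total counts alone, its value against DMSO went from 0.51 to 0.70 for vemurafenib and from 1.38 to 1.54 for the combination. Without tretinoin replicate 1, the rise with tretinoin for which A2M was chosen went from 1.07 to 0.89. In the combination against tretinoin 0.30 became 0.48 without that library, and the lowest value with 1 library left out was 0.17. Those that turned were not called: RARRES3 with tretinoin ran from -0.13 to 0.35 over the fits that left out 1 library, and with the combination against vemurafenib from -0.37 to 0.13. TNFAIP2 in the combination against tretinoin ran from -0.027 to 0.081, the RARRES3 interaction from -0.55 to 0.030 and the NRIP1 interaction from -0.046 to 0.24 (-0.063 with total counts alone). Total counts alone moved the median of all genes to 0.21 for vemurafenib and 0.19 for the combination against DMSO, 0.11 for the combination against tretinoin and -0.11 for the interaction.

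Of all genes, 951 passed with tretinoin, 1540 without a filter, 305 with the compared groups alone and 379 to 1367 with 1 library left out (379 without DMSO replicate 2, 619 without tretinoin replicate 2). For the combination against vemurafenib 749 passed, 1269 with the compared groups alone and 460 to 1172 with 1 library left out (1172 without tretinoin replicate 1, and 460 to 482 without vemurafenib replicate 1 or 2 or combination replicate 2 or 3). The interaction passed for 135 genes, 254 under DESeq2, 610 without a filter, 75 with the replicate block and 60 to 265 with 1 library left out (265 without tretinoin replicate 1, and 60 to 88 without DMSO replicate 2, vemurafenib replicate 1 or 2 or any combination replicate). The cause was not tested. Among the 4 genes, 1 to 2 passed in the combination against tretinoin with 1 library left out. The interaction count of 1 became 0 with total counts alone (2 at unadjusted p under 0.05), 0 with the replicate block (1 unadjusted) and 0 to 1 with 1 library left out. The replicate numbers share only a number, and blocking on them changed no other call of these genes. The prior of DESeq2 and the compared groups alone give no interaction, and the filter at 10 counts leaves out RARRES3. With 3 replicates and counts of at most 28, depth limits RARRES1, RARRES2 and RARRES3 most.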
